A study of Caenorhabditis elegans with 6 samples.

Results

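The epidermal hemidesmosome genes described here are 9 genes that encode structural parts of the attachments holding the epidermis of *C. elegans* between cuticle and muscle, namely *mup-4*, *mua-3*, *let-805*, *vab-10*, *vab-19*, *pat-12*, *ifb-1*, *mua-6* and *ifa-3*. They were taken by gene name for their known role. The rule uses no measured value, but the choice was made with earlier results of these data known. All 9 were found among the 20362 genes of the deposited count table and all 9 were among the 13736 genes that passed a filter on low counts. RNA-Seq counted poly(A) RNA of whole nematodes in 3 libraries of *grh-1* OEx line 1 and 3 libraries of the wild-type strain N2 (WT), each from its own synchronized population, to find genes regulated by the Grainyhead transcription factor GRH-1. The *grh-1* OEx line carries an integrated *hsp-16.2*p::*grh-1*::*gfp* construct, was made by bombardment of *unc-119*(*ed3*) nematodes and was then backcrossed to N2. The *hsp-16.2* promoter is heat-inducible, but no heat shock was given, and a single line was sequenced. Both groups were grown at 20 °C on *E. coli* OP50, with eggs incubated for 64 h and adults collected a further 48 h post-development.

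Nematode hemidesmosomes, also called fibrous organelles, are paired plaques on the apical and basal faces of the thin epidermis, joined by intermediate filaments. Receptors on the apical face hold the cuticle, a receptor on the basal face points towards the body wall muscle, and cytoplasmic linkers tie both to the filaments, so that the force of muscle contraction reaches the exoskeleton. Loss of several of these genes is known to detach muscle or cuticle in embryos and larvae. Grainyhead proteins are conserved regulators of the epidermis and of cuticle formation. Since RNA came from whole animals, fewer epidermal cells and less RNA per cell cannot be told apart, and several members are also expressed outside the epidermis.

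In *grh-1* OEx none of the 9 hemidesmosome genes rose or fell across all genes tested. *ifa-3*, an A-type intermediate filament gene and 1 of the least abundant members per length, had the largest log2 fold change of the 9, at 7.41 ± 2.52 CPM in *grh-1* OEx and 3.75 ± 0.758 CPM in WT (SD, n = 3 each), where CPM are counts scaled to a common library size and normalized by TMM. Its B-type partner *ifb-1* and its chromosomal neighbour *mua-6* had smaller log2 fold changes, and the receptors and linkers overlapped widely between the groups. A second pattern ran between libraries of the same genotype. All members were high together in *grh-1* OEx replicates 1 and 2 and low together in *grh-1* OEx replicate 3 and WT replicate 1. In WT replicate 3 all members except *ifa-3* were also above their mean.

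By the quasi-likelihood test of edgeR, with Benjamini-Hochberg adjusted p-values over all tested genes and a threshold of 0.05, 0 of 9 members were higher in *grh-1* OEx and 0 of 9 lower, where 0.146% and 0.298% of all tested genes were called higher and lower. At an unadjusted p under 0.05 the same test called 1 member higher, which was *ifa-3*, and 0 lower, against 2.18% and 4.44% of all tested genes. DESeq2 and limma-voom likewise gave 0 members at an adjusted p under 0.05 and only *ifa-3* at an unadjusted p under 0.05, where 1.97% and 2.18% of all tested genes were higher at that threshold. The fitted log2 fold change of *grh-1* OEx over WT was above 0 for 9 of 9 members, as for 47.6% of all tested genes. Its median over the members was 0.15 (range 0.03 to 0.98), against a median of -0.01 over all tested genes (quartiles -0.14 and 0.11). This side of 0 rests on single libraries, since without *grh-1* OEx replicate 2 the members' median was -0.05, against -0.02 over all genes tested in that fit, and without WT replicate 3 it was 0.44, against -0.004.

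Totals per library were 14409044 to 25535026 counts, with a biological coefficient of variation of 0.21. WT replicate 3, the deepest library, stood apart on the first principal component (51.9% of the variance). It also had the highest level of 10 of 12 sperm marker genes, whose summed level was 16.0 to 31.7 CPM in *grh-1* OEx and 10.2 to 192 CPM in WT, or at most 26.7 CPM in WT without that replicate. The same replicate had the highest level of 10 of 10 oocyte markers, with summed levels of 13200 to 14100 CPM in *grh-1* OEx and 11900 to 19600 CPM in WT, or at most 12500 CPM in WT without it. It was also highest for 8 of 10 body wall muscle markers and 5 of 8 male markers. The part of these tissues in the members' values was not tested. As a check of the strain, *grh-1* itself stood at 7.65, 9.69 and 6.52 CPM in replicates 1 to 3 of *grh-1* OEx, against 5.0, 5.63 and 6.17 CPM in replicates 1 to 3 of WT, a difference of 0.51 on the log2 scale (standard error 0.21, edgeR adjusted p = 0.709). The groups did not overlap, and the reads of the construct are counted in this gene. *hsp-16.2*, the source of the promoter, averaged 1.17 ± 0.603 CPM in *grh-1* OEx and 0.447 ± 0.217 CPM in WT (SD, n = 3 each). It was near the floor, at 0.219 to 1.82 CPM over the 6 libraries, and was not called (log2 fold change 1.35, standard error 0.51, edgeR adjusted p = 0.666). *unc-119*, the gene mutated in the bombarded strain, rose to 75.2 ± 2.41 CPM in *grh-1* OEx, against 20.1 ± 1.59 CPM in WT (SD, n = 3 each; log2 fold change 1.91, edgeR adjusted p = 6.2e-05), and its counts include reads of any *unc-119* copy that the line may carry.

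The apical receptors span the membrane that faces the cuticle. *mup-4* (WBGene00003497, chromosome III from 7479681 to 7489075 on the minus strand of WBcel235) encodes a large transmembrane protein with EGF repeats. It stood at 80.3, 98.0 and 55.8 CPM in replicates 1 to 3 of *grh-1* OEx, against 48.1, 66.0 and 96.9 CPM in replicates 1 to 3 of WT. The highest and the next highest value were thus in different groups, and the fitted log2 fold change was 0.15 (95% interval -0.44 to 0.74, edgeR adjusted p = 1.0).

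*mua-3* (WBGene00003482, chromosome III from 10160690 to 10183531, plus strand), the other apical receptor and related to *mup-4* in sequence, stood at 45.8, 53.8 and 25.8 CPM in replicates 1 to 3 of *grh-1* OEx, against 26.5, 33.7 and 42.7 CPM in replicates 1 to 3 of WT. *grh-1* OEx replicates 1 and 2 were above every WT library, while *grh-1* OEx replicate 3 was the lowest of the 6, with a fitted log2 fold change of 0.28 (95% interval -0.29 to 0.86, edgeR adjusted p = 1.0).

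On the basal face, *let-805* (WBGene00002915, chromosome III from 2658083 to 2681111, plus strand) encodes myotactin, a transmembrane protein with fibronectin type III repeats that keeps fibrous organelles in register with the muscle. It stood at 92.0, 113 and 47.9 CPM in replicates 1 to 3 of *grh-1* OEx, against 53.5, 67.7 and 98.6 CPM in replicates 1 to 3 of WT. The *grh-1* OEx libraries held both the highest and the lowest value, and the fitted log2 fold change was 0.20 (95% interval -0.48 to 0.88, edgeR adjusted p = 1.0). The level of *mup-4* per length relative to that of *let-805*, an apical against a basal receptor, was 1.13 ± 0.201 in *grh-1* OEx and 1.12 ± 0.0532 in WT (SD, n = 3 each; exact permutation test, two-sided, p = 1.0).

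The linkers sit in the cytoplasm between receptors and filaments. *vab-10* (WBGene00006876, chromosome I from 11747428 to 11792118, minus strand) encodes spectraplakins, with plectin-like VAB-10A isoforms at hemidesmosomes and VAB-10B isoforms tied to microtubules. Its 14 annotated transcripts were counted together, so that both kinds of isoform enter its value. It had the highest CPM of the 9 genes, with 216, 246 and 117 CPM in replicates 1 to 3 of *grh-1* OEx, against 108, 182 and 268 CPM in replicates 1 to 3 of WT. Both groups ranged over more than 2-fold, and the range of *grh-1* OEx lay within that of WT, with a fitted log2 fold change of 0.05 (95% interval -0.70 to 0.81, edgeR adjusted p = 1.0).

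*vab-19* (WBGene00006882, chromosome II from 2443292 to 2451140, plus strand) encodes an ankyrin-repeat protein of the KANK family that localizes to these attachments. It varied least between libraries, with 16.6, 20.4 and 13.7 CPM in replicates 1 to 3 of *grh-1* OEx, against 14.8, 14.6 and 19.6 CPM in replicates 1 to 3 of WT. The groups overlapped, and the fitted log2 fold change was 0.05 (95% interval -0.37 to 0.47, edgeR adjusted p = 1.0).

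*pat-12* (WBGene00003936, chromosome III from 727212 to 752426, minus strand), a further hemidesmosome linker with 19 annotated transcripts, stood at 71.0, 79.3 and 52.4 CPM in replicates 1 to 3 of *grh-1* OEx, against 53.8, 62.0 and 82.3 CPM in replicates 1 to 3 of WT. WT replicate 3 was the highest and *grh-1* OEx replicate 3 the lowest library. The fitted log2 fold change of 0.03 (95% interval -0.41 to 0.47, edgeR adjusted p = 1.0) was the smallest of the 9 members. In the fit of all 6 libraries, the 95% interval of the log2 fold change lay between -1 and 1 for all members except *ifa-3*. This includes the filament genes *ifb-1* and *mua-6* below. In that fit the intervals leave out a 2-fold change, in either direction, of the summed transcripts of these genes. They do not cover single isoforms or the fits with a library left out.

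**Figure D1:**
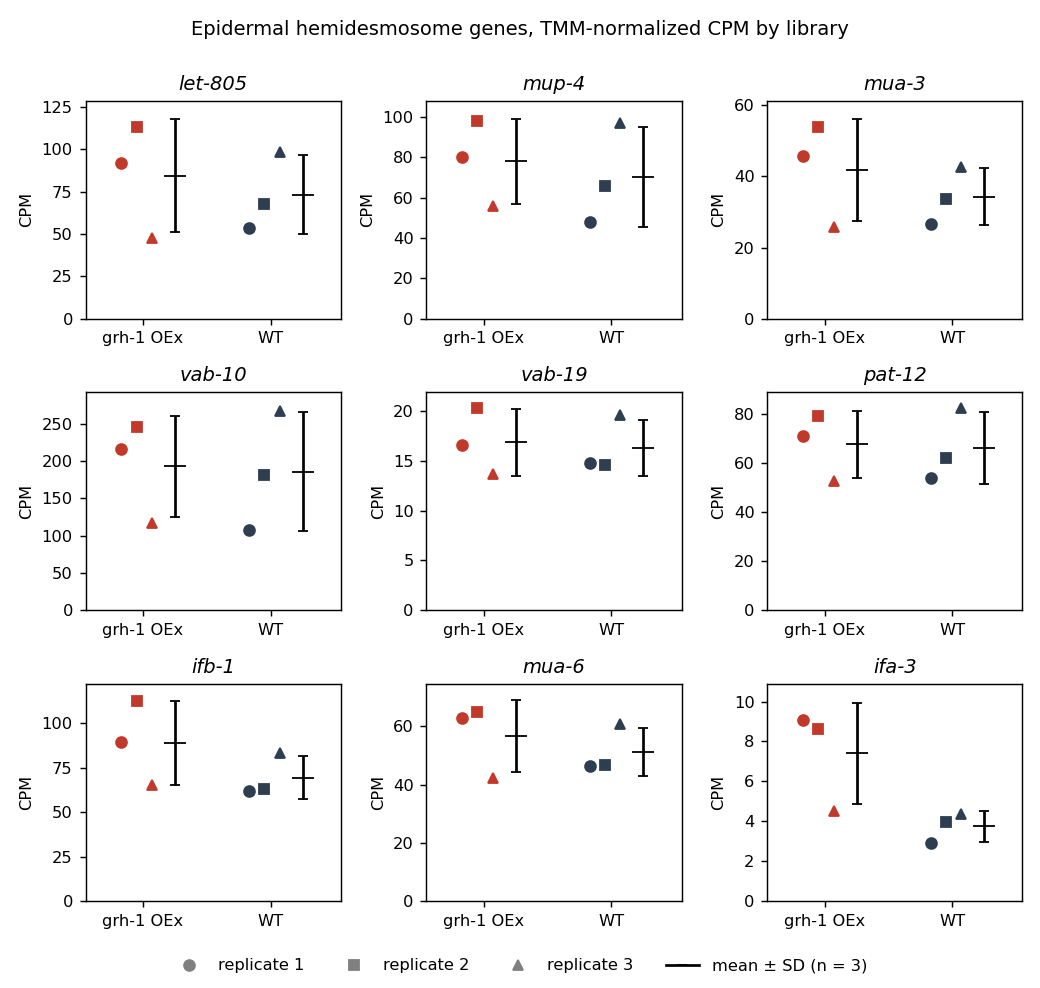
TMM-normalized CPM (y axis of each panel, starting at 0) of the 9 hemidesmosome genes in the 3 *grh-1* OEx libraries (red) and the 3 WT libraries (dark blue), with the replicate given by the symbol and the mean ± SD (n = 3) of each group as a bar. The groups overlap in 8 panels, and in that of *ifa-3* the lowest *grh-1* OEx value of 4.52 CPM lies just above the highest WT value of 4.36 CPM.

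The filaments of the epidermis are built from an A-type and a B-type chain, and the B-type chain encoded by *ifb-1* is the known partner of the A-type chains. *ifb-1* (WBGene00002053, chromosome II from 5765618 to 5772076, plus strand) stood at 89.5, 112.3 and 65.2 CPM in replicates 1 to 3 of *grh-1* OEx, against 62.1, 62.8 and 83.4 CPM in replicates 1 to 3 of WT. *grh-1* OEx replicates 1 and 2 were above every WT library, and *grh-1* OEx replicate 3 lay within the WT range. Its log2 fold change of 0.36 (standard error 0.20, 95% interval -0.10 to 0.81, edgeR adjusted p = 0.879) came next in size after that of *ifa-3*.

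*mua-6* (WBGene00003485, chromosome X from 16262295 to 16265686, minus strand), which encodes the A-type chain IFA-2, stood at 62.7, 64.9 and 42.3 CPM in replicates 1 to 3 of *grh-1* OEx, against 46.4, 46.8 and 60.8 CPM in replicates 1 to 3 of WT. Again *grh-1* OEx replicates 1 and 2 were above WT and *grh-1* OEx replicate 3 was the lowest of the 6, and the groups differed by 0.14 on the log2 scale (95% interval -0.27 to 0.56, edgeR adjusted p = 1.0).

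*ifa-3* (WBGene00002051, chromosome X from 16267257 to 16270056, minus strand), an A-type chain of the embryonic and larval epidermis, lies 1570 bases from *mua-6* on the same strand. It stood at 9.10, 8.62 and 4.52 CPM in replicates 1 to 3 of *grh-1* OEx, against 2.90, 3.99 and 4.36 CPM in replicates 1 to 3 of WT. It was the 1 member whose groups did not overlap, with every *grh-1* OEx library higher, as for 3.39% of all tested genes, while 0 members were lower without overlap, against 6.14% of all tested genes. The gap between *grh-1* OEx replicate 3 and WT replicate 3 was small. These levels rest on 43 to 189 counts per library. The fitted log2 fold change was 0.98 (standard error 0.29, 95% interval 0.33 to 1.63). With an adjusted p of 0.378 (edgeR) it did not pass the threshold over all genes. Over the 15 alternatives its log2 fold change was 0.81 to 1.26 and its adjusted p 0.0599 to 1.0. How reads shared by related filament genes were assigned is not given in the sources used here.

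GRH-1 binds DNA, and 3 octamers listed for the promoter of *ifa-3* in a scan for its motif are shown here because *ifa-3* is the member with the largest log2 fold change. The scan was run on genes the study selected on these same libraries, so the octamers are no independent support, and the other 8 members were not in it. Each is written 5′ to 3′ on its own strand, with the GGTTT at bases 4 to 8, which all 3 share, in capitals.
The octamer nearest to *ifa-3*: actGGTTT
The middle octamer: tccGGTTT
The farthest octamer: accGGTTT
The nearest lies at chrX:16270696-16270703 of WBcel235 on the minus strand, 640 bases before the annotated start of *ifa-3*, and falls in an intron of the antisense RNA gene *W10G6.5*. The middle octamer, at chrX:16271176-16271183 on the plus strand and 1120 bases before the start, falls in an intron of the same gene. The farthest, at chrX:16272523-16272530 on the plus strand, is intergenic and 2467 bases before the start. The nearest and the farthest were listed by both motif tools and the middle octamer by 1 of them. The placement was computed from the listed promoter windows and is good to within 1 base. The share of all promoters with such octamers was not computed here, and a listed match is not a measured binding site.

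Levels of different genes were compared as CPM per kilobase of the gene width given in the deposited table, over the 6 libraries. That this width is a transcript length in bases is an assumption. *ifb-1* was the most abundant at 37.2 ± 9.33 CPM per kilobase (SD, n = 6), followed by *pat-12* at 28.8 ± 5.48 and *mua-6* at 27.9 ± 5.1. *vab-10* came next at 16.6 ± 5.84 CPM per kilobase, then *mup-4* at 11 ± 3.13 and *let-805* at 10.0 ± 3.35. The lowest were *vab-19* at 4.95 ± 0.832, *mua-3* at 3.54 ± 1.04 and *ifa-3* at 2.81 ± 1.31 CPM per kilobase. Each gene was above the next in all 6 libraries except *pat-12* over *mua-6* (4 of 6) and *mua-3* over *ifa-3* (5 of 6), so that the order within these pairs is not settled. The places of *pat-12* and *vab-10*, whose many transcripts differ in length, depend on the length used. Over the union of annotated exons *pat-12* had 10.1 CPM per kilobase and the fourth rank and *vab-10* 7.86 and the fifth, behind *mup-4*.

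The balance among the RNAs of the filament genes, in whole animals, was compared within libraries as ratios of CPM per kilobase. These cancel whatever scales both genes of a library alike. *ifa-3* over *mua-6*, the pair of A-type genes, was 0.141, 0.129 and 0.104 in *grh-1* OEx replicates 1 to 3, against 0.061, 0.0831 and 0.07 in WT replicates 1 to 3. *ifa-3* over *ifb-1* was 0.109, 0.0822 and 0.0742 in *grh-1* OEx replicates 1 to 3, against 0.0501, 0.0681 and 0.056 in WT replicates 1 to 3. In both ratios every *grh-1* OEx library was above every WT library, although *ifa-3* RNA per length stayed far below that of *mua-6* and *ifb-1* in all 6. *mua-6* over *ifb-1* was 0.771, 0.636 and 0.714 in *grh-1* OEx replicates 1 to 3, against 0.821, 0.819 and 0.801 in WT replicates 1 to 3, with every *grh-1* OEx library lower. Each of these 3 ratios reached p = 0.1 in an exact permutation test (two-sided), the smallest p that 3 against 3 libraries allow, and 0.167 after Benjamini-Hochberg adjustment over the 5 ratios computed. The 5 ratios were chosen after the values had been seen, so these p-values are a description and no independent support. The ratio of *vab-19* to *vab-10* was 0.313 ± 0.0739 in *grh-1* OEx and 0.329 ± 0.119 in WT (SD, n = 3 each; exact permutation test, p = 0.9).

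**Figure D2:**
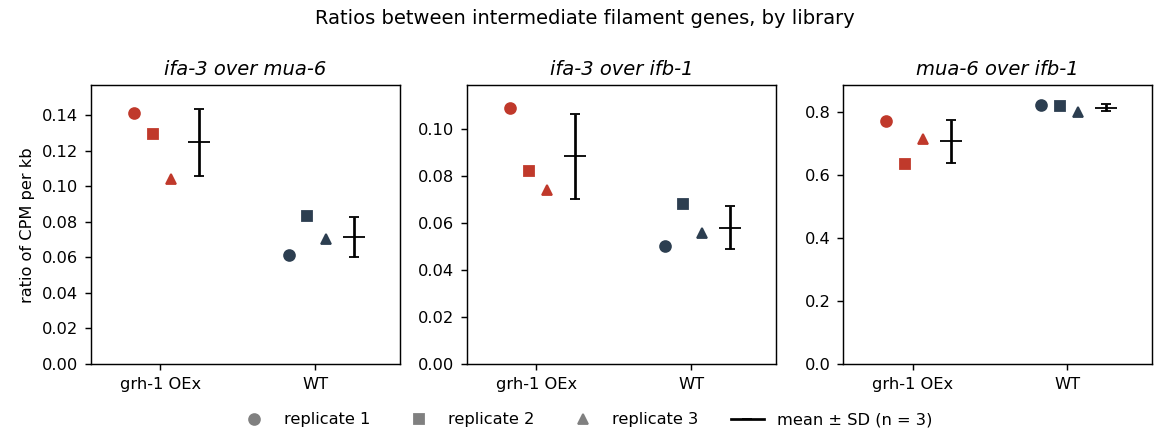
Ratios of CPM per kilobase (y axes, no unit, starting at 0) between the filament genes *ifa-3*, *mua-6* and *ifb-1* in the 3 *grh-1* OEx libraries (red) and the 3 WT libraries (dark blue), with the mean ± SD (n = 3) as a bar. Both ratios with *ifa-3* on top lie higher in every *grh-1* OEx library, and *mua-6* over *ifb-1* lies lower, at 0.707 ± 0.0678 in *grh-1* OEx and 0.814 ± 0.0111 in WT.

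The members moved together between libraries of the same genotype. As the difference of log2 CPM from each gene's mean over the 6 libraries, their median was 0.24, 0.46 and -0.33 in *grh-1* OEx replicates 1 to 3, against -0.46, -0.15 and 0.25 in WT replicates 1 to 3. All 9 were below their mean in *grh-1* OEx replicate 3 and in WT replicate 1, and all 9 above it in *grh-1* OEx replicates 1 and 2. In WT replicate 3 the other 8 were above their mean and *ifa-3* below it, at -0.23. *mua-3* followed the mean profile of the 9 most closely, at a root mean square distance of 0.068 on the log2 scale, and *ifa-3* least closely, at 0.366.

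Genes of 5 kilobases or more leaned the same way as the members in each library, and several members are that long. Over the 241 tested genes with a width of 5 kilobases or more, the median difference from the gene's mean was 0.21, 0.26 and -0.30 in *grh-1* OEx replicates 1 to 3, against -0.49, -0.02 and 0.35 in WT replicates 1 to 3. Over the 4806 genes shorter than 1 kilobase it was -0.08, -0.04 and 0.04 in *grh-1* OEx replicates 1 to 3, against 0.10, 0.04 and -0.07 in WT replicates 1 to 3. The long and the short genes thus leaned in opposite directions in all 6 libraries, though in WT replicate 2 both medians were close to 0. The 2 libraries in which long genes were lowest were also the 2 with the fewest counts, and WT replicate 3, in which they were highest, had the most. Among the members *vab-10*, *mua-3*, *let-805* and *mup-4* have widths of 6721 to 11380 bases, while *mua-6*, *ifa-3* and *ifb-1*, of 1937 to 2130 bases, also lay below their means in *grh-1* OEx replicate 3 and WT replicate 1. Over the 6026 genes of 1 to 2 kilobases, the median ran only from -0.04 to 0.02. *mua-6*, in that class, ran from -0.33 in *grh-1* OEx replicate 3 to 0.29 in *grh-1* OEx replicate 2. Over the 2663 genes of 2 to 5 kilobases, the median ran from -0.18 in WT replicate 1 to 0.17 in WT replicate 3. The part of gene length and depth in the shared pattern of the members was not tested beyond the fits given next.

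**Figure D3:**
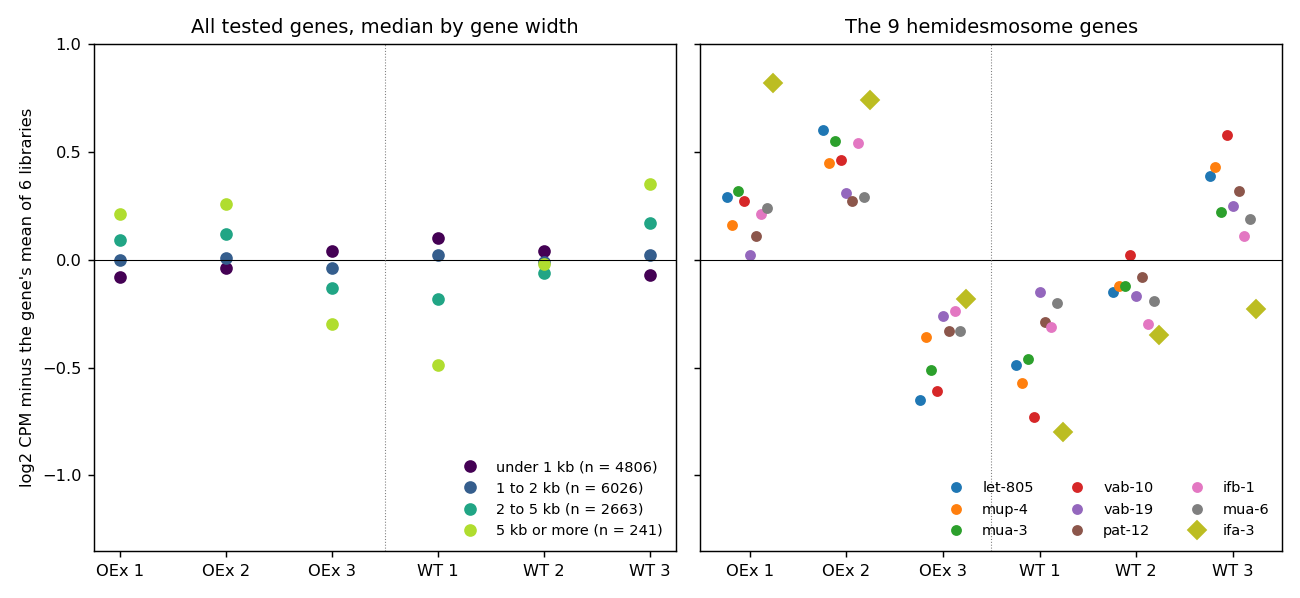
Difference of log2 CPM from each gene's mean over the 6 libraries (y axis), by library (x axis), as the median of all tested genes in 4 classes of width (left) and for each of the 9 hemidesmosome genes (right). Genes of 5 kilobases or more lie lowest in WT replicate 1 (-0.49) and highest in WT replicate 3 (0.35), and all members lie above 0 in *grh-1* OEx replicates 1 and 2 and below 0 in *grh-1* OEx replicate 3 and WT replicate 1.

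When the trend of each library on gene width was taken off as an offset in the same test, an alternative chosen after seeing the data, the standard error of *vab-10* was 0.13 in place of 0.34. The fitted log2 fold changes were then -0.07 for *vab-10*, -0.03 for *vab-19*, -0.0043 for *pat-12*, 0.05 for *mup-4*, 0.06 for *let-805* and 0.11 for *mua-3*, so that the signs of 3 linkers turned. The filament genes changed less, with 0.13 for *mua-6*, 0.33 for *ifb-1* and 0.95 for *ifa-3* (standard error 0.26, edgeR adjusted p = 0.246). Without WT replicate 3 as well, *ifa-3* had a log2 fold change of 1.03, with the lowest adjusted p it had in any fit (0.0599, edgeR), and *ifb-1* one of 0.41, and both were at an unadjusted p under 0.05. In the length-adjusted fits 2.84% of all tested genes were higher at that threshold with all 6 libraries and 3.99% without WT replicate 3. Again 0 of 9 members passed the adjusted threshold in either of these fits.

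Leaving out single libraries turned the sign of 5 members and changed the number of unadjusted calls. Without *grh-1* OEx replicate 3, 4 members were higher at an unadjusted p under 0.05 (*ifa-3*, *ifb-1*, *mua-3* and *mua-6*), as were 4.9% of all genes tested in that fit. Without WT replicate 3 there were 3 (*ifa-3*, *ifb-1* and *mup-4*), against 4.76% of all genes tested. In that fit the log2 fold changes were 1.10 for *ifa-3*, 0.50 for *ifb-1*, 0.47 for *let-805*, 0.46 for *mua-3*, 0.44 for *mup-4*, 0.41 for *vab-10*, 0.28 for *mua-6*, 0.22 for *pat-12* and 0.20 for *vab-19*. Those of the 7 other than *ifa-3* and *ifb-1* were over 1.5 times their values from all 6 libraries. Without *grh-1* OEx replicate 2 the log2 fold changes of *vab-10*, *let-805*, *mup-4*, *vab-19* and *pat-12* were all below 0, at -0.05 to -0.16. Only *ifa-3* was at an unadjusted p under 0.05 with every library left out in turn, while *ifb-1*, *mua-3* and *mua-6* were above 0 in each of these fits. The share of all tested genes higher at that threshold was 1.37%, 1.05% and 4.9% without *grh-1* OEx replicates 1, 2 and 3 in turn, and 2.14%, 3.06% and 4.76% without WT replicates 1, 2 and 3.

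**Figure D4:**
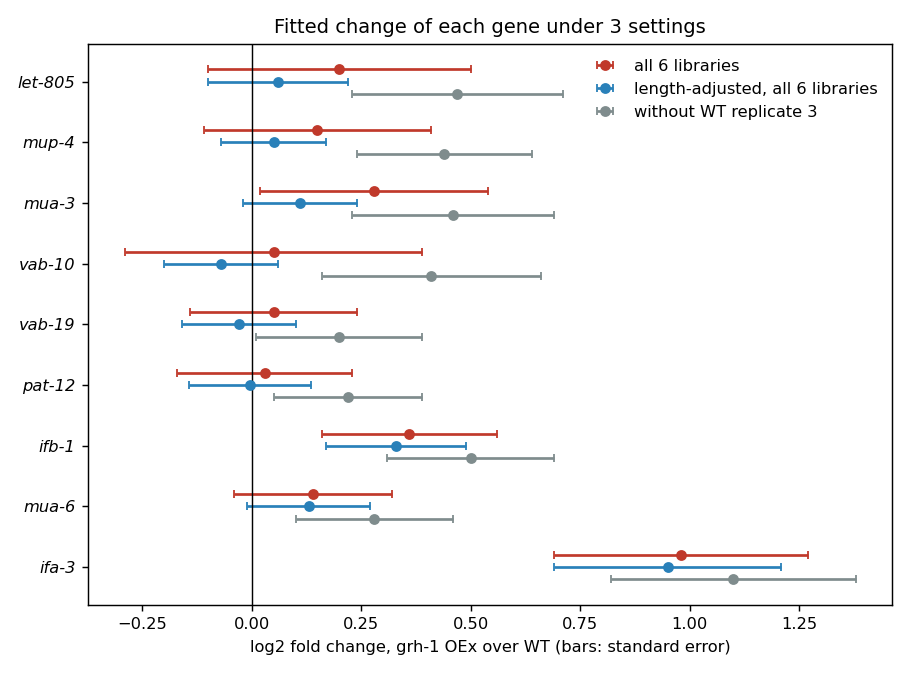
Fitted log2 fold change of *grh-1* OEx over WT (x axis, points) with its standard error (bars) for the 9 genes (y axis), from all 6 libraries (red), from all 6 libraries with the trend on gene width taken off (blue) and without WT replicate 3 (grey). *ifa-3* lies at 0.98, 0.95 and 1.10 in these fits, and the linkers *vab-10*, *vab-19* and *pat-12* change sides of 0 between the first and the second.

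Other genes that act at or near the hemidesmosome were measured beside the members. Of 11 further epidermal attachment genes, which include the filament gene *ifa-1*, the mechanical signalling genes *pak-1*, *pix-1* and *git-1* and the spectrins *spc-1*, *unc-70* and *sma-1*, 0 were higher and 0 lower by the edgeR test, adjusted or at an unadjusted p under 0.05. Their median log2 fold change was 0.15, with 9 of 11 above 0. The smallest p were those of *smo-1*, the nematode SUMO gene, at 334 ± 62.1 CPM in *grh-1* OEx and 415 ± 43.7 CPM in WT, and *pix-1*, at 24.5 ± 1.36 CPM in *grh-1* OEx and 22.1 ± 0.15 CPM in WT (SD, n = 3 each). *smo-1* overlapped between the groups and had a log2 fold change of -0.31 (edgeR adjusted p = 0.88), whereas the *pix-1* groups did not overlap and differed by 0.15 (edgeR adjusted p = 1.0).

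Of 9 other intermediate filament genes, most of them known from the intestine, 0 were higher or lower adjusted or at an unadjusted p under 0.05 in the same edgeR test, and 7 were above 0 with a median log2 fold change of 0.22. The smallest p were those of *ifc-1*, at 24.2 ± 5.13 CPM in *grh-1* OEx and 18.9 ± 2.16 CPM in WT, and *ifb-2*, at 91.8 ± 25.6 CPM in *grh-1* OEx and 75.9 ± 11.5 CPM in WT (SD, n = 3 each). Their log2 fold changes were 0.35 (edgeR adjusted p = 0.799) and 0.27 (edgeR adjusted p = 0.99), both smaller than that of *ifa-3*. On the muscle side of the attachment, 12 genes of the dense body and its matrix, such as *unc-52* (perlecan) and *pat-3* (integrin), also gave 0 in both directions adjusted and unadjusted. Their median log2 fold change was 0.11, with 11 of 12 above 0. *unc-112*, the kindlin gene, averaged 64.8 ± 6.07 CPM in *grh-1* OEx and 56.7 ± 4.05 CPM in WT, and *dim-1* 126 ± 25.4 CPM in *grh-1* OEx and 109 ± 18.4 CPM in WT (SD, n = 3 each), with log2 fold changes of 0.19 and 0.21 (edgeR adjusted p = 0.937 and 1.0). These medians were near that of the members.

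Markers of tissue and stage were set beside these values. Of 10 epidermis markers, such as the epidermal fate gene *lin-26*, 0 were higher or lower by the edgeR test, adjusted or at an unadjusted p under 0.05, and their median log2 fold change was 0.22. All 10 had reads in every library, and their summed level was 399 to 502 CPM in *grh-1* OEx and 315 to 465 CPM in WT. Epidermal RNA was thus present in each library, but the share of epidermal cells was not measured. Of 16 genes that mark larval molting and larval cuticle, 0 passed the adjusted threshold. At an unadjusted p under 0.05 in the edgeR test, 3 were higher, as were 2.18% of all tested genes. The median log2 fold change of the 16 was 0.40, with 13 above 0. None of the 16 was at 0 in any library, and their summed level was 444 to 816 CPM in *grh-1* OEx and 445 to 533 CPM in WT.

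The 3 were *noah-1* and *noah-2*, which encode zona pellucida domain proteins of the apical matrix, and *fbn-1*, a fibrillin-like matrix gene. *noah-1* averaged 109 ± 37.5 CPM in *grh-1* OEx and 68.4 ± 5.59 CPM in WT, *noah-2* 91.9 ± 27.1 CPM in *grh-1* OEx and 61.1 ± 2.23 CPM in WT, and *fbn-1* 46.7 ± 18.4 CPM in *grh-1* OEx and 27.1 ± 6.87 CPM in WT (SD, n = 3 each). As with *ifa-3*, *grh-1* OEx replicates 1 and 2 were high and *grh-1* OEx replicate 3 was close to WT. Of 9 embryo markers, the 1 higher at an unadjusted p under 0.05 was *hch-1*, an astacin protease gene needed for timely hatching, at 18.2 ± 5.83 CPM in *grh-1* OEx and 10.7 ± 1.16 CPM in WT (SD, n = 3 each; log2 fold change 0.76, edgeR adjusted p = 0.391). Of all tested genes, 2.18% were higher at that threshold. The summed embryo markers were at 219 to 269 CPM in *grh-1* OEx and 220 to 243 CPM in WT. Most of that sum was *pal-1*, at 193 ± 32.1 CPM in *grh-1* OEx and 192 ± 11.7 CPM in WT (SD, n = 3 each). The sum therefore says little about the other embryo markers. Of the 9, 6 had a log2 fold change above 0, with a median of 0.08. The part of larval or embryonic RNA in the difference of *ifa-3* was not tested.

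Markers of the other tissues gave 0 calls at the adjusted threshold and ran in both directions. For the counts below, 2.18% of all tested genes were higher and 4.44% lower at an unadjusted p under 0.05 in the edgeR test. Of 9 intestine markers 2 were lower at an unadjusted p under 0.05 (*asp-1* and *mtl-2*). The median of the 9 was -0.13 on the log2 scale, with 4 above 0. Their summed levels were 1900 to 2040 CPM in *grh-1* OEx and 2320 to 2930 CPM in WT. Much of these sums was *asp-1* itself, at 1080 ± 30.9 CPM in *grh-1* OEx and 1550 ± 240 CPM in WT (SD, n = 3 each). Of 10 oocyte markers 1 was lower (*perm-2*, median -0.06), and of 9 tested sperm markers 3 were lower (*ssp-10*, *msp-78* and *gsp-4*, median -1.89). Of 9 pharynx markers 1 was higher (*abu-14*, median 0.16). Body wall muscle and neuron markers, 10 each, gave 0 at an unadjusted p under 0.05 and a median of -0.04 each, with 4 of 10 above 0. The 1 male marker that passed the filter on low counts was not called, at 0.17.

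To place the members among all genes, the 8342 tested genes with a mean log2 CPM of 3 or more were ranked by the root mean square distance of their profile over the 6 libraries, each gene centred on its own mean, from the mean profile of the 9. The nearest were *ifo-1* (distance 0.05), *unc-44* (0.0568), *cdh-12* (0.0593), *scd-1* (0.0596) and *T24B8.4* (0.0599). *ifo-1* is known as an organizer of intestinal intermediate filaments, *unc-44* encodes ankyrin and *cdh-12* a cadherin, and the widths of these 5 genes ran from 1218 to 8949 bases. *ifo-1* stood at 31.5, 38.1 and 20.7 CPM in replicates 1 to 3 of *grh-1* OEx, against 18.1, 23.4 and 31.9 CPM in replicates 1 to 3 of WT, with the same high and low libraries as the receptors and linkers. All points share the same 6 libraries and their depth, so that these distances are a description.

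The genes nearest to *ifa-3* alone were others, namely *D2096.10* (distance 0.168), *F35H10.10* (0.181), *dpy-14* (0.193), *R09E10.5* (0.20) and *fbn-1* (0.20). They were picked for their likeness to *ifa-3*, whose level was higher in *grh-1* OEx. Their log2 fold changes above 0 and small p-values follow from that choice and are no independent support. *dpy-14* encodes a cuticle collagen. *F35H10.10* stood at 97, 97.5 and 60.2 CPM in replicates 1 to 3 of *grh-1* OEx, against 30.9, 36.7 and 40.8 CPM in replicates 1 to 3 of WT. It rose, with a log2 fold change of 1.23 (standard error 0.20, edgeR adjusted p = 0.0306), a call that was lost without *grh-1* OEx replicate 1 (adjusted p = 0.285), *grh-1* OEx replicate 2 (0.24) or WT replicate 2 (0.108), over a range of 1.15e-07 to 0.285 in all 15 alternatives. The other 4 did not pass, with log2 fold changes of 0.77 to 1.04 and adjusted p of 0.0984 to 0.626 in the same edgeR test, although *R09E10.5* and *dpy-14* passed in some alternatives, with adjusted p of 0.00143 to 0.622 and of 0.0184 to 1.0 over the 15.

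Neighbouring and overlapping genes could enter the counts of the members only to a small degree by position. *vab-10* shares 28 exonic bases with *Y47H9B.2* and *ifb-1* shares 31 with *dmd-5*, both on the opposite strand, which the unstranded libraries cannot tell apart. The remaining overlaps were piRNA loci of 9 and 21 bases in *vab-10* and *mua-6*.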

How the data were processed

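Poly(A) RNA was made into unstranded TruSeq libraries and sequenced single-end. After trimming, the authors used STAR to align reads to Ensembl WBcel235, and they deposited whole-number counts per gene from featureCounts of Subread. The submitters' processing notes also name FastQC and DESeq2, and versions are not given in the sources used here. Normalized counts, FPKM and the authors' own comparison columns (fold changes, p-values and FDR) were not used.

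Counts were tested with edgeR 4.0.16 (R 4.3.3; TMM, glmQLFit and glmQLFTest, tested on simulated data) after filterByExpr (minimum count 10, minimum total 15), with Benjamini-Hochberg adjustment over all tested genes. Standard errors of the edgeR fits are the absolute log2 fold change over the square root of the quasi-likelihood F statistic. Intervals are 95%, from that standard error and the t distribution. Annotation was Ensembl release 115. Alternatives were DESeq2 1.42.0, limma-voom (limma 3.58.1), RLE and upper-quartile factors, no filter, a minimum of 10 counts in each library, a replicate block, each library left out and, added after seeing the data, offsets for gene width (lowess span 0.3), also without WT replicate 3.

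Libraries were grouped by genotype. Within groups no library was a copy of another (chi-square per degree of freedom 16.4 or more). Members, lists and alternatives were chosen with earlier results of these data known. Genes named were the 9 members, genes of the epidermal attachment, intermediate filament and muscle attachment lists at an unadjusted p under 0.05 or else the 2 with the smallest p, the strain checks, and the 5 genes with the most similar profile. Marker genes at an unadjusted p under 0.05 were named after their values were seen, and *lin-26* and the genes said to be included in a list are named as examples.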

Additional observations from a re-analysis of the deposited data

How the results depend on the processing

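In all 15 alternatives 0 of the 9 members passed the adjusted threshold. Over the whole table, 20 genes rose and 41 fell. DESeq2 gave 60 and 89, length-adjusted offsets without WT replicate 3 gave 65 and 104, and leaving out each library in turn gave 1 to 41 risen and 10 to 212 fallen genes. The count of members at an unadjusted p under 0.05 ranged from 1 to 4 with a library left out and was 2 with length-adjusted offsets and no WT replicate 3, and their median log2 fold change ranged from -0.05 to 0.44 with a library left out.

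Deviations of same-numbered libraries from their group means correlated at 0.231, -0.00902 and -0.123. Those of differently numbered libraries ran from -0.374 to 0.326. The replicate numbers were therefore not taken as pairs. With 3 libraries in each group, these values cannot exclude that same-numbered libraries shared a batch. With the replicate block 10 genes rose, and *ifa-3* had a log2 fold change of 0.93 (edgeR adjusted p = 0.603). The replicate block also took *F35H10.10* to 1.21 (adjusted p = 0.0964, edgeR).

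With each library left out in turn, log2 fold changes crossed 0 for *vab-10* (-0.17 to 0.41), *let-805* (-0.06 to 0.51), *mup-4* (-0.05 to 0.44), *vab-19* (-0.11 to 0.20), *pat-12* (-0.10 to 0.22) and *T24B8.4* (-0.04 to 0.39). All 6 were below 0 without *grh-1* OEx replicate 2, *vab-10* and *pat-12* also without *grh-1* OEx replicate 1 (-0.03 and -0.0018), and *vab-10*, *mup-4* and *pat-12* without WT replicate 1 (-0.17, -0.01 and -0.05). With length-adjusted offsets they were -0.07 for *vab-10*, -0.03 for *vab-19* and -0.0043 for *pat-12*, and without WT replicate 3 as well -0.0059 for *vab-19* and -0.0062 for *cdh-12*. None of these values was called in either fit, and the cause was not tested. *ifa-3*, on 43 to 189 counts per library, is the member that depth limits most. *hsp-16.2* gave no value under the filter of 10 counts in each library.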
